A study of Caenorhabditis elegans with 2 samples.

Results

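The proteasome subunit genes of Caenorhabditis elegans were examined for binding of a GFP-tagged transcription factor in first-stage (L1) larvae. The members were chosen as a fixed list of 31 genes encoding proteasome subunits, out of 19973 protein-coding genes on the 6 chromosomes. All 31 were found by symbol in the annotation. Of these, 14 encode the core particle (7 alpha subunits, pas-1 to pas-7, and 7 beta subunits, pbs-1 to pbs-7). The other 17 encode the regulatory particle, with 6 ATPases (rpt-1 to rpt-6) and 11 non-ATPase subunits (the rpn genes).

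Chromatin immunoprecipitation with sequencing (ChIP-seq) was carried out on whole larvae of strain OP355, of mixed sex, in 2 biological replicates of 1 group. The strain is mutant at unc-119 (allele tm4063, chromosome III) and carries the integrated transgene wgIs355. The chromatin came from whole larvae, and the lists do not show which cell types held the tagged factor. The labels name mdl-1 as the tagged gene in the antibody and source fields but ZK337.2 (klu-1) in the description. The strongest region of all 3 lists lay at mdl-1. The window of klu-1 held no pooled region, and its best regions ranked 8847 in replicate 1 and 14768 in replicate 2. There is no second condition, so the comparisons are between replicates, between subunit classes, and with all protein-coding genes.

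The proteasome is the protease that degrades proteins marked with ubiquitin. Its core particle is a barrel of alpha rings, which form the gate, and beta rings, which hold the protease sites. The regulatory particle caps the barrel. Its ATPases unfold the substrate, and its non-ATPase subunits recognise ubiquitin and remove it. The subunits are made in fixed proportions, and their genes are often transcribed together. MDL-1 belongs to the basic helix-loop-helix leucine zipper proteins, which bind E-box sequences such as CACGTG.

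Each deposited list gives regions with a signal and a summit, the point of the region marked as its centre of binding. For each gene, regions were taken whose summit lay in a window from 1000 bp upstream of the 5' end to the gene end, and the region with the highest signal is called the best. It was taken in each list on its own, so the best region of a replicate can be another region than that of the pooled list. Rank 1 is the strongest of the 30000 regions in a list. The scale of the signal, not given in the sources used here, may differ between lists, so replicates are set side by side by rank. The lists hold no read counts, so the depth is unknown. The thresholded list of the authors, made from the pooled and both replicate lists, holds exactly the strongest 0.863% of the pooled regions, with signals of at least 49.8. The first region outside it had a signal of 49.7.

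The sequences around the summits on which the results turn are shown first, read from the reference assembly (WBcel235, the assembly of ce11), 5' to 3' on the strand of the gene. The 11 bases centred on the pooled summit are in capitals. The rpn-11 sequence is cut at the annotated 5' end of the gene. It is the only subunit gene with a region in the thresholded list. The rpn-3 and rpn-2 genes had the next strongest regions of the regulatory particle, and cdc-48.1, a gene that acts before the proteasome, had a stronger region than any subunit gene.
rpn-11, chrII:4044547-4044618, minus strand: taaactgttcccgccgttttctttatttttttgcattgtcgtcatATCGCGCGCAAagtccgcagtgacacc
rpn-3, chrIII:8446975-8447075, plus strand: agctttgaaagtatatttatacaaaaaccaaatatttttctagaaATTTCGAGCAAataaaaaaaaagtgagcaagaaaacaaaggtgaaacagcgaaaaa
rpn-2, chrIII:6199791-6199891, plus strand: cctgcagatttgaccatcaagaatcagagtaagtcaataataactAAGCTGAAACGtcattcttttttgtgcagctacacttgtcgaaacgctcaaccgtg
cdc-48.1, chrII:10563526-10563626, minus strand: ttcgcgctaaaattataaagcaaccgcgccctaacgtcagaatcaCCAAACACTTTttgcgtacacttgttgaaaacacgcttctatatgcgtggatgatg

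Across the 31 subunit genes, 20 (64.5%) had a region of the pooled list in their window, against 65.8% of all protein-coding genes. In replicate 1 the count was 18 (58.1%) against 64.1%, and in replicate 2 it was 22 (71.0%) against 66.9%. Having any region was therefore about as frequent at subunit genes as at genes in general. A region in all 3 lists was found for 12 subunit genes (38.7%), against 43.9% of all genes. The subunit genes are compact, with a median window of 2473 bp against 3027 bp for all genes. Their windows held 3.66 pooled regions per 10 kb, against 3.06 for all genes. In promoter windows of equal length for every gene, with 1000 bp before the 5' end and 500 bp after it, 14 subunit genes (45.2%) had a pooled region, against 42.7%, and 1 (rpn-11) had a thresholded one, against 0.721%.

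The strong regions gave a different count. The best pooled region ranked in the first 1000 for 5 subunit genes (16.1%), namely rpn-11, pas-5, pbs-4, rpn-3 and rpn-2, against 3.84% of all genes. In replicate 1 it did so for 4 (12.9%) against 3.75%, but in replicate 2 for only 1 (3.23%) against 4.0%. Only rpn-11 did so in all 3 lists, as did 1.08% of all genes. A thresholded region lay in the window of 1 subunit gene, rpn-11 (3.23%), against 1.03% of all genes. The median best pooled signal over the 20 genes was 25.5 (range 16.5 to 69.9), against 22.4 over the genes of the whole annotation with a region. The corresponding median rank was 5903, against 10395. In replicate 1 alone it was 9293, against 10511, and in replicate 2 alone 7560, against 10127.5, so the gap to all genes was smaller in each replicate than in the pooled list. The share in the first 1000 was thus larger for subunit genes than for all genes in the pooled list and replicate 1, but not in replicate 2. These are descriptions of 2 libraries, with no test, since genes are not replicates.

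**Figure D1:**
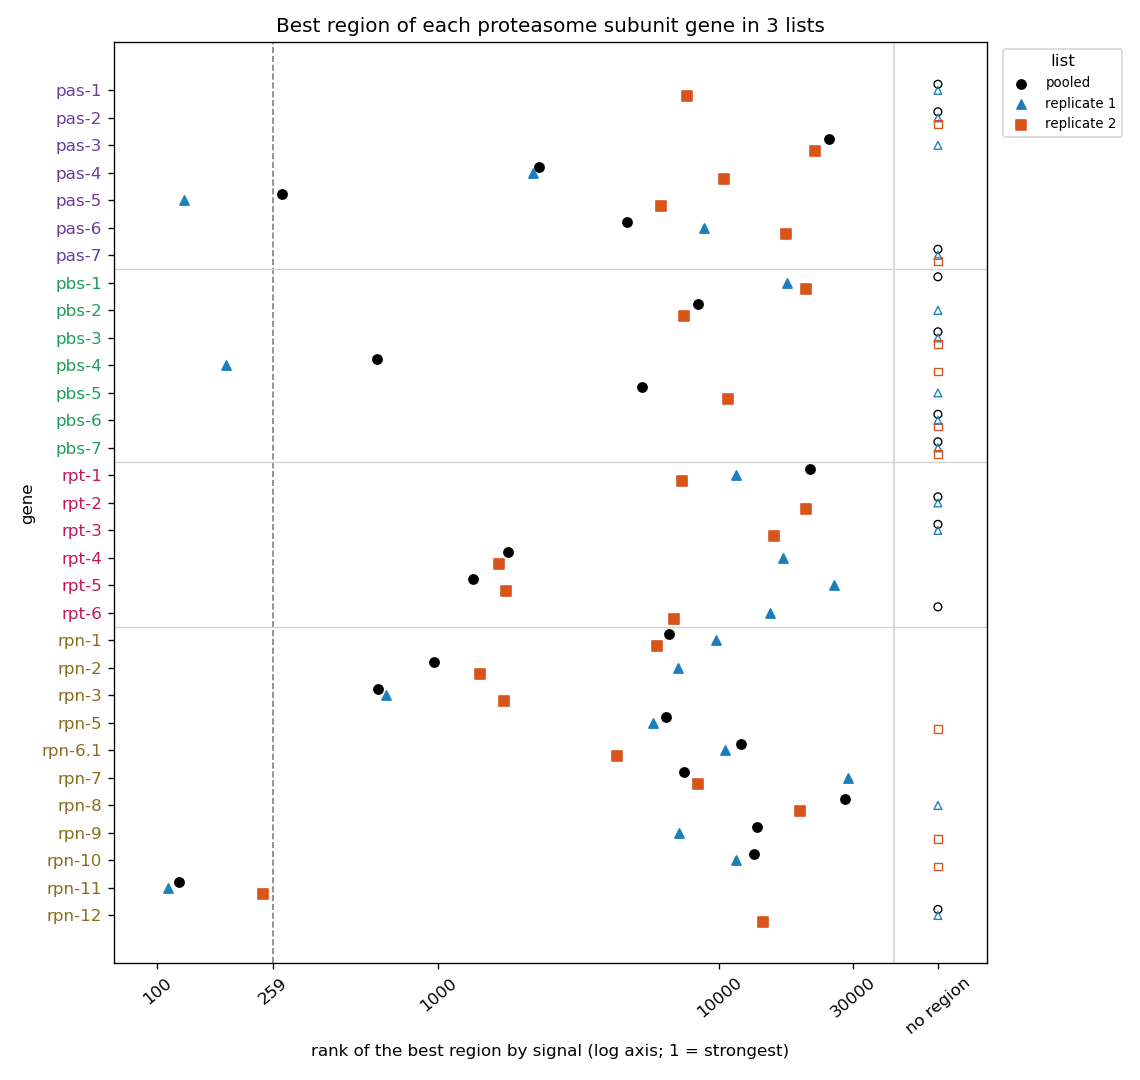
Rank of the best region of each of the 31 proteasome subunit genes (rows, grouped as alpha, beta, ATPase and non-ATPase) in the pooled list, replicate 1 and replicate 2, on a log axis on which 1 is strongest. The dashed line marks the number of regions in the thresholded list, and open symbols at the right mark lists with no region in the window. Only rpn-11 lies left of the line in all 3 lists, while pas-5 and pbs-4 do so in replicate 1 alone.

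The rpn-11 gene encodes the subunit that cuts ubiquitin chains off the substrate, and it was the highest-ranked subunit gene in each of the 3 lists. The gene (WBGene00004467) lies on chromosome II from 4043055 to 4044546, on the minus strand. Its best region spanned 4044398 to 4044737 in the pooled list, with a signal of 69.9 and rank 120. In replicate 1 the signal was 36.7 (rank 109), and in replicate 2 it was 29.4 (rank 238). Each replicate thus placed it within its own strongest 0.863% of regions. In replicate 1 that held for 3 subunit genes (9.68%), the others being pas-5 and pbs-4, against 0.986% of all genes, and in replicate 2 for rpn-11 alone (3.23%), against 0.956%. The summit lay 22 bp upstream of the 5' end in the pooled list and in replicate 2, and 68 bp upstream in replicate 1. That point is intergenic, in the gap of 224 bp between rpn-11 and the gene before it on the same strand, K07D4.2, whose own 5' end is 928 bp from the pooled summit. A second, weaker pooled region in the window, with a signal of 21.4 and rank 12422, lay in a coding exon of K07D4.2.

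Among the other non-ATPase genes, the best pooled signals ranged from 16.5 at rpn-8 to 38.6 at rpn-3, and rpn-12 had no pooled region. The rpn-3 gene, which encodes a subunit of the lid of the regulatory particle, had a region on chromosome III from 8446855 to 8447194. Its rank was 609 in the pooled list, 653 in replicate 1 (signal 23.9) and 1716 in replicate 2 (signal 18.3). The pooled summit was 328 bp upstream of rpn-3 but only 116 bp upstream of hsp-110, a chaperone gene that runs the other way from the same gap of 443 bp. A non-coding RNA gene, C30C11.14, starts 70 bp from the summit. The region therefore cannot be given to rpn-3 rather than to its neighbours.

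The rpn-2 gene, which encodes a large scaffold subunit, had a region inside the gene, in an intron 657 bp from the 5' end (chromosome III, 6199671 to 6200010). Its pooled signal was 35.2 (rank 963), and its ranks differed between replicates, at 7152 in replicate 1 (signal 15.6) and 1405 in replicate 2 (signal 18.9). Its summit lay 667 bp from the 5' end in replicate 1 and 657 bp in replicate 2, so the position differed little. The other scaffold gene, rpn-1, ranked 6621 in the pooled list, and the lid genes rpn-5 and rpn-7 ranked 6490 and 7476. For rpn-6.1, a lid gene, and for the ubiquitin receptor gene rpn-10 and the lid gene rpn-9, pooled ranks were 12003, 13312 and 13678. The rpn-8 gene, whose product pairs with RPN-11, had the weakest, at rank 27923, with a region in replicate 2 (signal 10.1, rank 19337) but none in replicate 1. The lid gene rpn-12 had a region in replicate 2 alone, at rank 14337, in the short gap before the opposite gene rad-23. In this class only rpn-11, rpn-3 and rpn-2 had a best pooled region in the first 1000. For rpn-2 this held in the pooled list alone, and the rpn-3 region lies close to other genes too.

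Among the 6 ATPase genes, rpt-1, rpt-4 and rpt-5 had a pooled region, and rpt-2, rpt-3 and rpt-6 had none. The highest was at rpt-5, with a signal of 33.2 and rank 1327, and the lowest was at rpt-1, with a signal of 18.3 and rank 21019. Both regions were deep inside the gene, 1526 bp (in the 3' UTR) and 1578 bp from the 5' end. The rpt-4 region (signal 31.6, rank 1771) lay in a coding exon 2697 bp from the 5' end. The annotated 5' end of rpt-4 overlaps rpoa-49 on the other strand, so its promoter is not separate in the annotation. The rpt-4 gene ranked 16827 in replicate 1 (signal 12.5) and 1641 in replicate 2 (signal 18.4). Its best region in replicate 1 was another one, 2191 bp from the 5' end and inside both rpt-4 and nfyc-1. The replicate 1 region that matched the pooled summit ranked 17052. The rpt-5 gene ranked 25563 in replicate 1 (signal 10.7) and 1742 in replicate 2 (signal 18.2). Both were high in replicate 2 only. At rpt-1 the ranks were 11518 in replicate 1 (signal 13.9, at another region 236 bp upstream) and 7370 in replicate 2 (signal 13.5). The rpt-6 gene ranked 15188 in replicate 1 (732 bp upstream) and 6898 in replicate 2, at another region 750 bp inside the gene. Regions in replicate 2 alone were found for rpt-2 and rpt-3, at ranks 20361 and 15709. No ATPase gene had a best region in the first 1000 of any list.

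Of the alpha subunit genes, which build the gate of the core, 4 of 7 had a pooled region, and pas-1, pas-2 and pas-7 had none. The strongest was at pas-5, with a pooled signal of 48.12 and rank 278, just outside the thresholded list. It spanned 10565189 to 10565528 on chromosome I, and its summit was 991 bp upstream of the 5' end, at the edge of the window and inside the small nucleolar RNA gene F25H2.15. In replicate 1 the same region ranked 125 (signal 34.8). In replicate 2 a region within 200 bp of that summit ranked 3411 (signal 15.97) but fell outside the window, and the best region inside it ranked 6204. The pas-4 region (rank 2281 in the pooled list and 2167 in replicate 1) lay in its own first bases, 45 bp inside the 5' end, while replicate 2 matched it only at rank 26059. The pas-6 gene ranked 4688. The lowest was pas-3, with a signal of 17.3 and rank 24523, and its summit fell in a coding exon of the neighbouring gene use-1. It had no region in replicate 1 and one at rank 21933 in replicate 2 (signal 9.57). The pas-1 gene had a region in replicate 2 alone, at rank 7650, and pas-2 and pas-7 had none in any list.

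Of the beta subunit genes, 3 of 7 had a pooled region, namely pbs-4, pbs-5 and pbs-2. The pbs-4 region (chromosome I, 3908554 to 3908893) had a pooled signal of 38.7 and rank 605, with the summit 23 bp upstream of the 5' end. It ranked 176 in replicate 1 (signal 30.9), and replicate 2 held no region anywhere in the window. Among the genes for the protease sites, pbs-5 had a pooled signal of 26.03 (rank 5316), with its summit in a coding exon of K05C4.2, and pbs-2 had the lowest, at 23.6 (rank 8437). Neither had a region in replicate 1, and in replicate 2 pbs-5 ranked 10737 (signal 12.2) and pbs-2 ranked 7470 (signal 13.4). The third such gene, pbs-1, had no pooled region. It had weak regions at rank 17444 in replicate 1 and rank 20410 in replicate 2. The structural subunit genes pbs-3, pbs-6 and pbs-7 had no region in any list.

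Core genes were compared with regulatory genes as groups. A pooled region was found for 7 of 14 core genes (50%) and 13 of 17 regulatory genes (76.5%), against 65.8% of all genes. The windows of core genes were shorter, with a median of 2018.5 bp against 2953 bp. In promoter windows of equal length the counts were 7 of 14 core genes (50%) and 7 of 17 regulatory genes (41.2%), against 42.7% of all genes. Per 10 kb of window the core genes held 3.83 pooled regions and the regulatory genes 3.56. The 5 genes with no region in any list, pas-2, pas-7, pbs-3, pbs-6 and pbs-7, were all core genes. They make up 35.7% of the 14 core genes and 16.1% of the 31, and 15.9% of all genes had no region in any list.

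Among genes with a pooled region, the median best signal was 26.7 for core genes (range 17.3 to 48.12) and 24.9 for regulatory genes (range 16.5 to 69.9). The difference of medians, core minus regulatory, was 1.83, and the range of the core genes lay inside that of the regulatory genes. With the list of replicate 2 alone the difference was -1.66, and with that of replicate 1 alone it was 5.33. As the signal scale may differ between lists, only the signs of these differences can be compared. No order of core and regulatory genes by signal was therefore shared by both replicates. With windows starting 500 bp upstream it was -0.0594 in the pooled list.

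**Figure D2:**
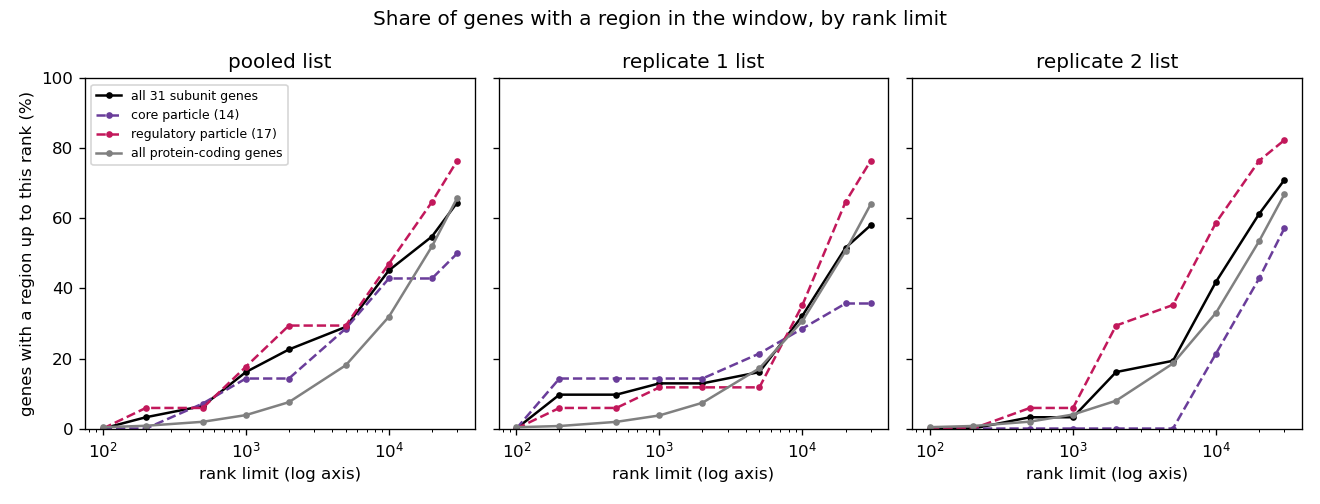
Share of genes (%) whose best region ranks within a limit (log axis), for all 31 subunit genes, the 14 core genes, the 17 regulatory genes and all protein-coding genes, in the pooled, replicate 1 and replicate 2 lists. In replicate 2 no core gene lies within the first 5000, whereas in replicate 1 the core share at rank 200 is 14.3%.

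The replicates differed in which subunit genes they placed high. A limit of 2000, chosen after the values were seen, held 4 subunit genes in replicate 1 (12.9%, against 7.36% of all genes), namely rpn-11, pas-5, pbs-4 and rpn-3. In the pooled list it held 7 (22.6%, against 7.54%), and in replicate 2 it held 5 (16.1%, against 7.95%), namely rpn-11, rpn-3, rpn-2, rpt-4 and rpt-5. Both lists shared rpn-11 and rpn-3, that is 2 of 4 and 2 of 5 genes, and 6.45% of subunit genes against 2.09% of all genes. Over the 14 subunit genes with a region in both replicates, the ranks of the best regions had a Spearman rho of 0.327, against 0.175 over 9633 protein-coding genes. Genes are not independent samples, so these are descriptions with no p. A further 4 of the 31 subunit genes had a region in replicate 1 only and 8 in replicate 2 only. Of all 19973 protein-coding genes, 3162 had one in replicate 1 only and 3719 in replicate 2 only. Whether depth or library quality differed between the replicates was not tested, as the lists hold no value for either.

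Position gave another view of agreement. The best pooled summit had a region within 200 bp in both replicates for 10 of the 20 subunit genes (50%), against 33.9% of all genes with a pooled region. Those 10 were pas-4, pas-5, pas-6, rpt-4, rpt-5, rpn-2, rpn-3, rpn-6.1, rpn-7 and rpn-11. With summits at most 50 bp apart the number was 6, and the share of all genes at that limit was not taken. A match in replicate 1 was found for 15 of the 20, against 65.5% of all such genes, and a match in replicate 2 also for 15, against 61.5%. None was matched in neither, against 6.89% of all such genes. The pooled list was called on the reads of both replicates, so a match with at least 1 of them is not independent of it.

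**Figure D3:**
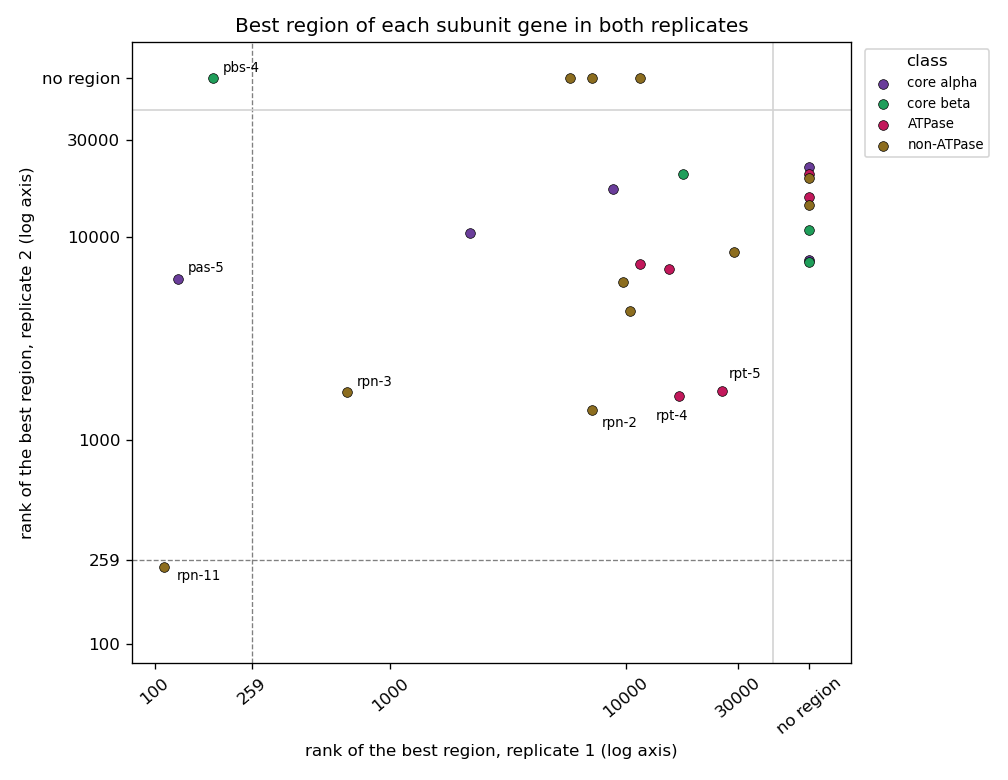
Rank of the best region of each subunit gene in replicate 1 (x axis) and replicate 2 (y axis), both on log axes, coloured by class; dashed lines mark the number of regions in the thresholded list and the outer strips hold genes with no region in that replicate. The 5 genes with no region in either replicate are not drawn, and rpn-11 (ranks 109 and 238) is the only point inside both dashed lines.

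The best summits were spread over the gene and its upstream sequence. Of the 20, 11 (55.0%) were upstream of the 5' end, against 33.7% of all genes with a pooled region. The upstream stretch is a larger part of the window in these compact genes, and its effect on the share was not tested. By particle the count was 6 of 7 core genes (85.7%) and 5 of 13 regulatory genes (38.5%). Coding exons held 10 (50%, against 34.2%), of which 7 lay in the subunit gene itself and 3 in a neighbour. Intergenic sequence held 7 (35.0%, against 23.1%), introns 1 (5%, against 33.0%), 3' UTRs 1 (against 5.29%), a non-coding gene 1 (against 1.40%) and 5' UTRs 0 (against 2.85%). A summit within 50 bp of the 5' end, a limit chosen after the values were seen, was found for rpn-5 (13 bp upstream), rpn-11, pbs-4 and pas-4. That is 4 of 20 genes, against 3.67% of all genes with a pooled region. All 4 had a matching region in replicate 1, at ranks 5791, 109, 176 and 2167. In replicate 2, rpn-11 was matched at rank 238 and pas-4 at rank 26059, and rpn-5 and pbs-4 had no region in the window.

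**Figure D4:**
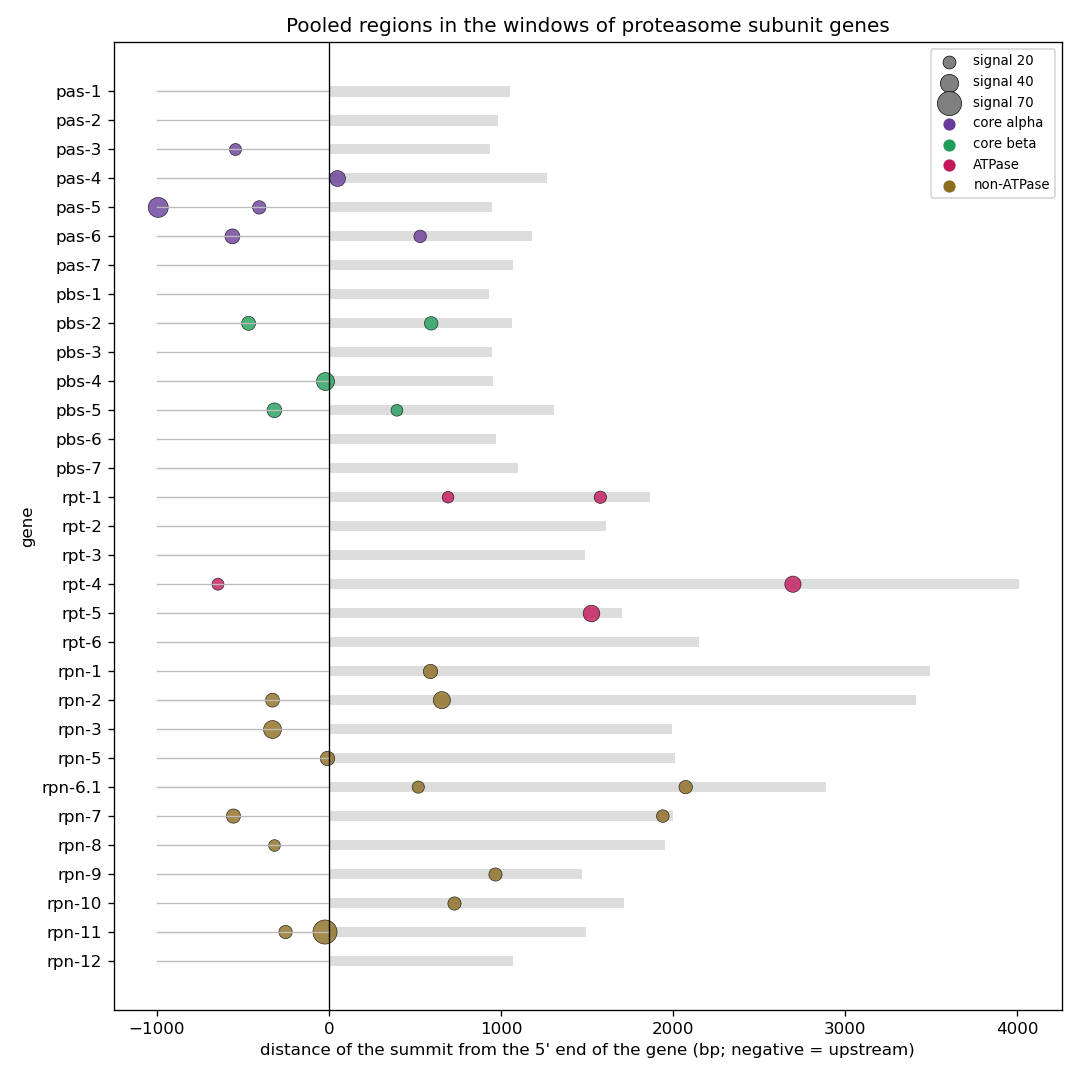
Distance of every pooled summit from the 5' end of its subunit gene (bp, negative upstream), with grey bars for the gene, thin lines for the 1000 bp before it, and circle area proportional to the pooled signal. The largest circle is rpn-11 at 22 bp upstream, and 11 genes have no circle.

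The sequence of the summits was searched on both strands within 50 bp. The palindromic E-box CACGTG was at none of the 20 best summits of subunit genes, against 2.73% of the best pooled summits of all protein-coding genes and 25.1% of the thresholded regions. Over every pooled region in the windows of the subunit genes, CACGTG was at 2 of 30 (6.67%), against 2.49% of all 30000 pooled regions. Those 2 were weaker regions, at pas-5 (rank 12507, 404 bp upstream) and at pbs-5 (rank 27534, in a coding exon 396 bp from the 5' end). Both counts are too small to say whether CACGTG was less or more frequent at subunit genes than in general. Among the 20 best regions, only that of rpn-11 was thresholded. At rpn-11 the nearest CACGTG was 1696 bp from the summit, at rpn-2 3378 bp, at pbs-4 1183 bp, at pas-5 543 bp and at rpn-3 32863 bp. Within 500 bp, 3 of the 20 summits had CACGTG (rpt-4 at 272 bp, pas-3 at 331 bp and rpt-1 at 497 bp), against 16.5% of all pooled regions and 46.3% of the thresholded ones. The general E-box CANNTG, which includes CACGTG and CATGTG, was within 50 bp of 11 of the 20 summits. It was so for 34.3% of all pooled regions and 56% of the thresholded ones. The share over the best regions of all genes, the like set, was not taken. The rpn-11 summit had 1 match.

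Of the other sequences searched, CATGTG was at the summit of rpn-1 only (3.50% of all pooled regions), TATCAT at pas-3 only (5.76%) and TGTCAT at rpn-9 only (4.98%). TATCAT and TGTCAT cover the core of the site that the worm factor SKN-1 is known to bind. GAGAGAG (2.01% of all pooled regions) and TGATAA (9.17%) were at none of the 20. None of the 6 sequences was in the 4 stretches printed above. GC content within 50 bp of the best summit had a median of 40.6% over the 20 subunit genes (range 18.8% to 52.5%). Over all pooled regions, which are not limited to best regions of genes, the median was 35.6%. The value over the best regions of all genes was not taken. At rpn-11 it was 49.5%, the same as the median of the thresholded regions, and at rpn-3 it was 25.7%.

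Counts per chromosome were small, as each of chromosomes I to V holds 3 to 10 subunit genes. Chromosome I holds 10 of the 31 genes, and 9 of them had a pooled region, against 68.4% of all protein-coding genes of that chromosome. The gene without one was pbs-7. On chromosome II it was 4 of 7 (against 62.3%), on III 3 of 6 (69.3%), on IV 2 of 3 (63.9%) and on V 2 of 5 (61.8%). On none of these chromosomes did both replicates repeat the pooled count. On II, rpn-5 and rpn-9 had no region in replicate 2, and rpn-12 had a region there alone. On IV, pbs-1 had a region in each replicate but no pooled one. On V, pas-1 and rpt-2 had a region in replicate 2 alone. On chromosome I, pas-3, pbs-2, pbs-5 and rpn-8 had no region in replicate 1, and pbs-4 and rpn-10 had none in replicate 2. On III, rpt-6 had a region in each replicate, at different places, and rpt-3 had one in replicate 2, though neither gene had a pooled one. No subunit gene lies on chromosome X.

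Related genes of the pathway were taken from a list of 21. A pooled region was found for 18 of them (85.7%, against 65.8% of all genes), in replicate 1 a region for 13 (61.9%, against 64.1%) and in replicate 2 for 18 (85.7%, against 66.9%). Their median best pooled rank was 10422, against 10395 for all genes, so the medians were close. A thresholded region was found for 2 (9.52%, against 1.03%). The first 1000 pooled regions included 6 of the 21 (28.6%, against 3.84%). In replicate 1 the count was only 2 (9.52%, against 3.75%), and in replicate 2 it was 4 (19.05%, against 4.0%). The 2 in all 3 lists were cdc-48.1 and ubql-1. The median window of these genes, 3572 bp, was longer than that of the subunit genes. The thresholded regions were both at genes that deliver substrates to the proteasome.

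The ubql-1 gene encodes ubiquilin, a shuttle for ubiquitin-marked proteins. Its best region (chromosome I, 7021297 to 7021636) had a pooled signal of 152.6 and ranked 28 in the pooled list, 34 in replicate 1 (signal 68.8) and 22 in replicate 2 (signal 85.5). The pooled summit was 505 bp upstream of ubql-1 and 670 bp upstream of pdi-3, which runs the other way, and lay inside the overlapping non-coding RNA genes VF15C11L.1 and VF15C11L.2. The nearest CACGTG was 82 bp away. The cdc-48.1 gene encodes an ATPase that extracts ubiquitin-marked proteins from complexes and membranes. Its best region (chromosome II, 10563406 to 10563745) had a pooled signal of 109.8 and rank 47, with rank 37 in replicate 1 (signal 65.4) and rank 83 in replicate 2 (signal 46.8). Its summits lay 169, 180 and 192 bp upstream of the 5' end in the pooled list, replicate 1 and replicate 2, with no other protein-coding 5' end within 1000 bp. Both regions were thus stronger than that of rpn-11 in all 3 lists. The paralogue cdc-48.2 had a pooled signal of 20.6 (rank 14248) and no region in replicate 1.

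The other 4 related genes in the first 1000 were aip-1, rpn-6.2, sel-11 and skn-1. The aip-1 gene, whose product associates with the proteasome under arsenite stress, had a pooled signal of 41.3 (rank 459), at a summit in the 5' UTR of the neighbouring gene ddx-17. Its ranks were 3027 in replicate 1 and 501 in replicate 2. The rpn-6.2 paralogue of rpn-6.1 had 39.04 (rank 577) at its 3' end, 53 bp upstream of F59B2.3, with rank 1019 in replicate 1. In replicate 2 a region within 200 bp of that summit ranked 2623 (signal 16.9) but fell outside the window, and the best region inside it, in an intron, ranked 17679. The sel-11 gene, which encodes a ubiquitin ligase of the endoplasmic reticulum, had 36.9 (rank 747) in a coding exon, with rank 6286 in replicate 1 and 1484 in replicate 2. The skn-1 gene, whose product activates proteasome subunit genes in worms when the proteasome is impaired, had 35.03 (rank 997) in an intron, 69 bp from the non-coding RNA gene T19E7.26. It ranked 1435 in replicate 1 and 5557 in replicate 2. The polyubiquitin gene ubq-1 ranked 1944 in the pooled list and 387 in replicate 2, with no region in replicate 1.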

How the data were processed

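ChIP-seq regions came from 2 libraries of 1 group. Per the labels, each is a separate biological replicate, with 1 technical replicate and fragments of 150 to 350 bp. The deposited lists hold a signal per region, of a scale not given in the sources used here. Readmes deposited with them say that the authors called regions against a control, in each replicate and in the pooled reads, and took the thresholded list from these. Aligner, caller, versions and the threshold set by the authors were not given in the sources used here. Depth is unknown, the ce10 lists were not used here, and the reads and control were not analysed here.

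Coordinates are ce11, 1-based. Gene positions came from Ensembl release 115, and sequences from RefSeq, both of assembly WBcel235. Each gene has 1 window, at its outermost annotated 5' end. Python 3.11.15, pandas 2.3.3, numpy 2.4.6 and matplotlib 3.10.9 were used. The assignment was tested on simulated regions.

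The members, gene lists, sequences and limits were chosen with earlier results of these data known. All members are accounted for, and values in every list are given for genes with a best region in the first 1000 of any list and for the highest and lowest gene of each class. CACGTG within 500 bp and over every region of a window, CANNTG, GC content, the limits of 2000 and 50 bp and the positional classes were added after seeing the data. No test was made: 1 group of 2 libraries allows none, and genes and regions are not replicates. Alternatives changed the window, assignment, threshold, overlap, sequence window, annotation and replicates included.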

Additional observations from a re-analysis of the deposited data

How the results depend on the processing

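Of 31 subunit genes, 1 had a thresholded region in all windows tried, with RefSeq gene coordinates and among the 130 strongest regions. Among the 1000 strongest the count was 5, and with a replicate left out it was 1 to 3 in an equally long list of the strongest regions of the other. The number with a pooled region, 20, ranged from 14 in promoter windows to 22 without replicate 1. The median rank of 5903 became 7560 to 9293 with a replicate left out, against 10127.5 and 10511 for all genes. The core minus regulatory difference in median signal, 1.83, changed sign with windows starting 500 bp upstream (-0.0594). It was -1.66 without replicate 1 and 5.33 without replicate 2, of which only the signs can be compared. The 10 best regions matched in both replicates became 6 with summits at most 50 bp apart, a limit at which the share of all genes was not taken. CACGTG was at 0 best summits in each setting run on best regions but the 500 bp window, where it was at 1, since the second pas-5 region then became the best. With every pooled region in the window counted, an alternative chosen after seeing the data, it was at 2 genes. The best signal of single genes was the same with any overlap. In promoter windows 6 genes lost their region and 2 changed, and with 500 bp upstream 1 lost it and 3 changed. For the changes with a replicate left out, the cause was not tested in these data. No paired analysis was possible because only 1 group was studied. Without read counts, the precision of weak regions cannot be given.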
